A study of Mus musculus with 12 samples.

Results

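The transcripts of the nuclear transport machinery were followed in mouse muscle cells and muscle, of wild type and of knockouts of 1 of 2 genes for nuclear envelope proteins. The genes were taken by name from a table of 22552 genes: every symbol made of Nup and a number (with or without a final l), Kpna or Kpnb and a number, Ipo and a number, or Xpo and a number or t. This rule found 40 genes, which were 20 nucleoporins, 6 importins alpha, 8 members of the importin beta family and 6 exportins. The rule itself uses no expression value, but it was chosen with earlier results of these data known.

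Nuclear pores are large protein channels in the nuclear envelope. The Y complex and the inner ring form their scaffold, membrane-anchored nucleoporins hold them in the envelope, and nucleoporins rich in phenylalanine-glycine repeats fill the channel and its cytoplasmic and nuclear faces. Importins carry cargo inward and exportins carry it outward, with direction set by the small GTPase Ran. Importin alpha proteins read the classical nuclear localization signal and bind importin beta 1 (Kpnb1), whereas most other receptors of the beta family bind their cargo directly.

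The study profiled 12 samples of strain C57Bl/6 by RNA sequencing, 6 labelled as myoblast and 6 as striated muscle. Lbr encodes the lamin B receptor, a protein of the inner nuclear membrane, and Lmna encodes lamins A and C of the nuclear lamina. Homozygous Lbr knockouts, homozygous Lmna knockouts and wild-type littermates came from matings of heterozygous parents. Myoblasts formed 4 groups, namely 2 Lbr knockouts, 1 wild type of the Lbr litter, 2 Lmna knockouts and 1 wild type of the Lmna litter, and muscle formed 3 groups of 2 samples, namely Lbr knockout, Lmna knockout and wild type. No age, sex, muscle or number of cultures is given in the sources used here. The deposited table holds 1 column of FPKM (fragments counted per length of transcript and per depth of the library) per group, so a column that stands for 2 samples carries no spread and values below are the authors' group values.

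The labels were checked first. Lbr was at 7.71 FPKM in Lbr-knockout myoblasts against 16.1 in the wild type of that litter, and at 1.87 against 11.8 FPKM in muscle. Lmna was at 18.5 against 147 FPKM in myoblasts and at 22.6 against 59.5 FPKM in muscle. Some transcript of the targeted gene thus remained in every knockout column, and protein levels were not read here. The muscle columns held fibre transcripts, with the 7 fibre markers summing to between 47918 and 64264 FPKM. The columns labelled as myoblast were low in the defining myoblast markers: Myod1 was between 2.09 and 5.51 FPKM, Myf5 between 0.191 and 0.441 FPKM and Pax7 between 0.152 and 0.273 FPKM, and all 5 genes of that list were higher in every muscle column. These columns were high in the fibroblast collagen Col1a1, at 1027 to 1151 FPKM against 426 to 459 in muscle, and in the macrophage lysozyme Lyz2, at 316 to 1131 FPKM. Another fibroblast marker, Dcn, went the other way, at 20.3 to 40.2 FPKM in these columns and 254 to 287 FPKM in muscle. The columns are called myoblasts here as the labels do. The myoblast libraries were made with the NuGEN Ovation RNA-Seq kit and the muscle libraries with the NuGEN complete RNA-Seq protocol, so kit and tissue cannot be told apart in any comparison between the tissues.

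The stretch just upstream of the annotated start is shown for the 2 transport genes that were furthest below their myoblast level in muscle, Kpna2 and Nup107, and for the 2 that were above it, Nup210 and Ipo13. Each sequence is the 200 bases before the start in RefSeq, build GRCm38.p6, written 5′ to 3′ on the gene's own strand, which is the minus strand for all 4. Capitals mark matches on either strand to 1 of 5 motifs of promoter-binding factors: CCAAT (the NF-Y box), TTTGAA (the cell cycle homology region, CHR), TTCCCGC (an E2F core), GCATGCGC (NRF1) and CAGCTG (an E-box of the kind that myogenic factors bind).
Kpna2 at chr11:106999526-106999725: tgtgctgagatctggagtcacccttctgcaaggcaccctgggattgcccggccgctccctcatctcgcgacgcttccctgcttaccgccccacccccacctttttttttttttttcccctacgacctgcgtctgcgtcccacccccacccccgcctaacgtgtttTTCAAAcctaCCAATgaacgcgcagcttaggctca
Nup107 at chr10:117792706-117792905: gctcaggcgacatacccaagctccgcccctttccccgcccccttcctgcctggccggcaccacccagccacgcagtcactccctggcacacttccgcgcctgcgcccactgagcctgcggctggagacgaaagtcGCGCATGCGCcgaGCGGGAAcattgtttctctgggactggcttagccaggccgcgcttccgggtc
Nup210 at chr6:91116827-91117026: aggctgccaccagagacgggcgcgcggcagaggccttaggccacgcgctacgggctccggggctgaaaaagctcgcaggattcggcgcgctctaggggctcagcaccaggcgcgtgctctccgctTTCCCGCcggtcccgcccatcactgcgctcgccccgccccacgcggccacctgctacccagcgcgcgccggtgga
Ipo13 at chr4:117915000-117915199: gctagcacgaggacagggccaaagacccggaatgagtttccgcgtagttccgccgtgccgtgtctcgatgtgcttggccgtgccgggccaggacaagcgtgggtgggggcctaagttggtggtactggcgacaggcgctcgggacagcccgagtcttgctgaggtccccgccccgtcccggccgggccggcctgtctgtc
The Kpna2 window holds a TTTGAA match, on the opposite strand, followed closely by CCAAT. The Nup107 window holds a palindrome that matches the NRF1 motif on both strands with overlap, and an E2F core on the opposite strand. Nup210 holds an E2F core, and the Ipo13 window holds none of the 5 motifs.

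Of the 40 genes, 31 were matched in the table of RefSeq promoters used here, with 36 windows because some genes have more than 1 start. CCAAT was found in 18 windows (50%), against 31.7% of the 11226 windows of 8746 genes whose mean level reached 1 FPKM. TTTGAA was found in 6 windows (16.7%, against 7.52%), among them those of Nup37, Nup98 and Kpna2. GCATGCGC was found in 4 (11.1%, against 3.93%), those of Nup62, Nup107, Nup50 and Xpo5. TTCCCGC was found in 2 (5.56%, against 5.61%). CAGCTG was found in 0 of 36 windows, against 10.2% of all windows. The median number of CG dinucleotides in a window was 19 for the transport genes and 13 for all genes. These counts describe letters in the windows and were not tested.

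Transcripts of the transport machinery were lower in muscle than in myoblasts across nearly every structural and functional class. The 40 genes summed to between 1245 and 1368 FPKM in the 4 myoblast columns and to between 355 and 401 FPKM in the 3 muscle columns. In such bulk samples fewer cells of a type and less RNA per cell cannot be told apart. A limma fit to log2(FPKM + 1) with tissue and genotype as terms covered 38 of the 40 genes, whose mean over the columns reached 1 FPKM, and called 35 lower and 2 higher in muscle at a Benjamini-Hochberg adjusted p under 0.05. Over all 12454 genes fitted, 51.0% were called lower and 27.7% higher, so most of the genome's expressed genes also passed the test and the share of transport genes has to be read against that. The whole distribution was shifted too: the median difference was −0.47 over all genes and −1.73 over the 38 transport genes, and 31 of the 38 had a 95% interval that lay wholly below the median of all genes. Every muscle column lay below every myoblast column for 35 of the 38 genes, against 50.9% of all genes, and above every myoblast column for 1, against 28.0% of all genes. Nup210, which is 1 of the 2 called higher and the 1 with all muscle columns above, passed the level filter only through its muscle columns, so its call supports nothing further. With each column centred on its median, an alternative chosen after seeing the data, 30 transport genes were called lower and 2 higher, the median of all genes moved to 0.01 and that of the transport genes to −1.25, and the share of higher genes among all calls went from 35.2% to 50.7%.

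**Figure D1:**
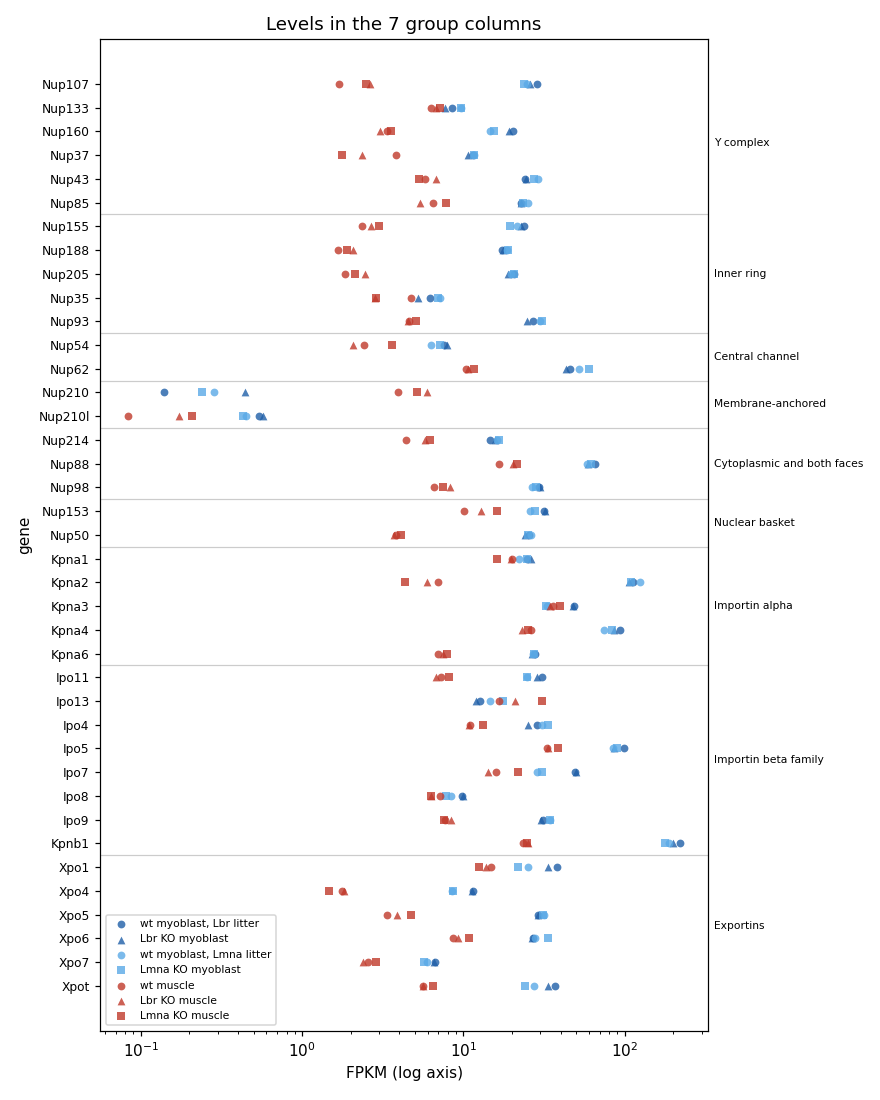
FPKM (horizontal log axis) of 39 of the 40 transport genes, grouped by role, with 1 point per group column: dark blue for the Lbr litter myoblasts, light blue for the Lmna litter myoblasts and red for muscle, circles for wild type, triangles for Lbr knockout and squares for Lmna knockout. Kpna7, listed at 0 in 4 columns, is left out. Red points lie to the left of the blue points for most genes, Nup210 has the opposite order, and Kpna3 has its red points among the blue ones.

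Among the nucleoporins fitted, 18 of 19 were lower in muscle and 1 was higher. The Y complex, the outer scaffold ring, had a median difference of −1.86 with 6 of 6 genes lower. Its member Nup107 was at 28.5, 25.7, 24.8 and 23.9 FPKM in the Lbr-litter wild type, the Lbr knockout, the Lmna-litter wild type and the Lmna knockout among myoblasts, and at 1.69, 2.62 and 2.47 FPKM in wild-type, Lbr-knockout and Lmna-knockout muscle; later lists of all 7 columns keep this order. The myoblast columns lay close together and far above all 3 muscle columns. The difference in log2(FPKM + 1) was −3.06 (95% interval −3.43 to −2.70, limma adjusted p = 2.57e-06), and the mean FPKM was 11.4-fold lower in muscle. Nup133, another scaffold member of the complex, had the smallest difference of the Y complex, −0.35 (limma adjusted p = 0.045), and its sign turned to 0.14 with quantile normalization and to 0.13 with columns centred on their medians.

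The inner ring, the inner part of the scaffold, had the lowest median of the roles, −2.64, with 5 of 5 genes lower in muscle. Nup205, a large scaffold protein of the ring, was at 20.7, 19.0, 19.7 and 20.6 FPKM in myoblasts and at 1.84, 2.47 and 2.13 FPKM in muscle. Its paralog Nup188 was at 17.3, 17.5, 18.6 and 18.8 FPKM in myoblasts and at 1.66, 2.06 and 1.90 FPKM in muscle. The paralogs had close values: their differences were −2.75 (−3.07 to −2.44) and −2.74 (−3.04 to −2.44), and mean FPKM was 9.30-fold and 9.63-fold lower in muscle. Nup93, their scaffold partner, was at 27.0, 24.7, 29.6 and 30.7 FPKM in myoblasts and at 4.63, 4.51 and 5.10 FPKM in muscle, a difference of −2.33 (−2.63 to −2.04). Nup35, a small membrane-binding member of the ring, had the smallest difference of the 5, −0.69 (limma adjusted p = 0.0054), and was named after its values were seen; the call was lost with quantile normalization (limma adjusted p = 0.11) and with columns centred on their medians (limma adjusted p = 0.28).

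In the central channel, both genes were lower in muscle. Nup62, a phenylalanine-glycine repeat protein of the channel, was at 45.9, 43.2, 52.1 and 60.4 FPKM in myoblasts and at 10.3, 10.6 and 11.7 FPKM in muscle. The lowest myoblast column was several times the highest muscle column, and the difference was −2.12 (−2.44 to −1.80). Its channel partner Nup54 had a smaller difference, −1.19.

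Of the nucleoporins on the cytoplasmic side or on both faces, 3 of 3 were lower, with a median of −1.63. Nup98, a repeat protein found on both faces of the pore, was at 29.5, 29.9, 26.8 and 28.1 FPKM in myoblasts and at 6.57, 8.27 and 7.45 FPKM in muscle, a difference of −1.83 (−2.13 to −1.53). Both nuclear basket genes were lower. Nup153, which anchors the basket to the pore, was at 31.7, 32.0, 25.98 and 27.7 FPKM in myoblasts and at 10.01, 12.9 and 16.0 FPKM in muscle. Its groups did not overlap, but the difference, −1.17 (−1.57 to −0.77), was less than that of Nup50, −2.42 (−2.71 to −2.14), a mobile basket protein that takes part in importin alpha release.

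Of the membrane-anchored nucleoporins, Nup210 and Nup210l fall under the naming rule. Nup210 (gp210), a transmembrane pore protein known to be made as muscle cells differentiate, was at 0.140, 0.444, 0.285 and 0.238 FPKM in myoblasts and at 3.94, 5.97 and 5.16 FPKM in muscle. Every muscle column was above every myoblast column, the mean FPKM was 18.2-fold higher in muscle, and the difference was 2.19. The gene entered the fit only because of its muscle columns, so these values are given as a description. At low levels the added 1 FPKM shrinks a log2 difference, so 2.19 understates the ratio of means. Its paralog Nup210l was between 0.432 and 0.572 FPKM in myoblasts and between 0.0833 and 0.209 FPKM in muscle, below the level filter and not tested. Tmem48 (Ndc1) and Pom121, membrane nucleoporins outside the naming rule, were lower in muscle, with differences of −2.48 and −1.81 (limma adjusted p = 2.93e-06 and 1.01e-05).

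**Figure D2:**
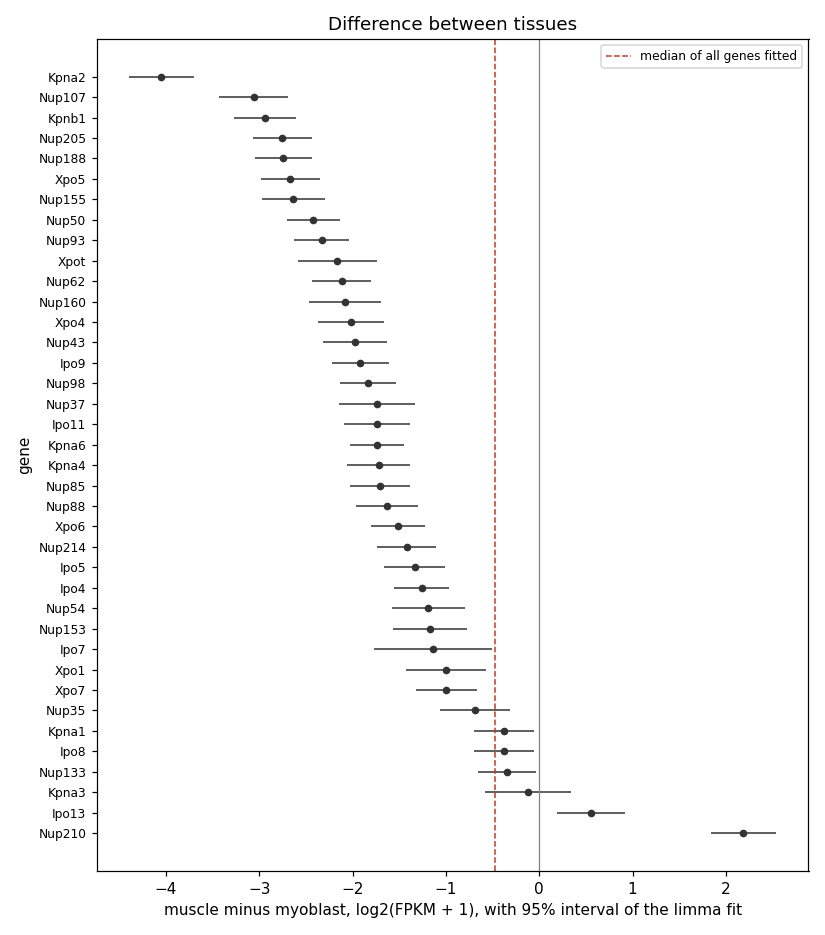
Muscle minus myoblast difference in log2(FPKM + 1) (horizontal axis) for the 38 fitted transport genes, sorted from the most negative, with 95% intervals of the limma fit on 4 myoblast and 3 muscle columns; the dashed line is the median of all 12454 genes, −0.47. The values run from −4.05 for Kpna2 to 2.19 for Nup210, and 31 intervals lie wholly left of the dashed line.

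Among the importins alpha, 4 of the 5 fitted genes were lower in muscle and the make-up of the family differed between the tissues. Kpna2 (importin alpha 1), which is known to be abundant in proliferating cells, was at 112, 106, 124 and 109 FPKM in myoblasts and at 6.98, 5.98 and 4.36 FPKM in muscle. Its mean FPKM was 19.6-fold lower in muscle and its difference, −4.05 (−4.39 to −3.71, limma adjusted p = 7.09e-07), was the most negative of the 38 genes. RefSeq lists a Kpna2 pseudogene, so reads shared with that copy make the Kpna2 level uncertain.

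Kpna3 (importin alpha 4) was at 48.2, 47.9, 33.1 and 32.7 FPKM in myoblasts and at 35.7, 34.5 and 39.6 FPKM in muscle. Here the tissues overlapped, and the difference of −0.12 (−0.58 to 0.34, limma adjusted p = 0.58) did not pass the test; the interval leaves room for a modest difference either way, and the sign turned to 0.27 with quantile normalization and to 0.36 with columns centred on their medians. Its close paralog Kpna4 (importin alpha 3) was at 93.3, 86.1, 74.6 and 82.8 FPKM in myoblasts and at 26.1, 22.9 and 25.0 FPKM in muscle, a difference of −1.72 (−2.06 to −1.39). Kpna1 had a difference of −0.38 (limma adjusted p = 0.035) that turned to 0.14 with quantile normalization and to 0.10 with columns centred on their medians. Kpna7, an importin alpha known from oocytes and early embryos, was at most 0.0757 FPKM and listed at 0 in 4 of the 7 columns.

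As shares of the summed importin alpha FPKM, which do not change when a column is multiplied by a factor, Kpna2 took between 36.2% and 44.1% in myoblasts and between 4.70% and 7.28% in muscle. Kpna3 took between 11.8% and 16.4% in myoblasts and between 37.2% and 42.6% in muscle, and Kpna1 between 7.87% and 8.92% and between 17.3% and 21.7%. The Kpna4 share was between 26.6% and 30.4% in myoblasts and between 25.3% and 27.2% in muscle, so its ranges overlapped. The sum itself was between 277 and 307 FPKM in myoblasts and between 90.5 and 95.9 FPKM in muscle. The leading importin alpha was thus Kpna2 in all 4 myoblast columns and Kpna3 in all 3 muscle columns.

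**Figure D3:**
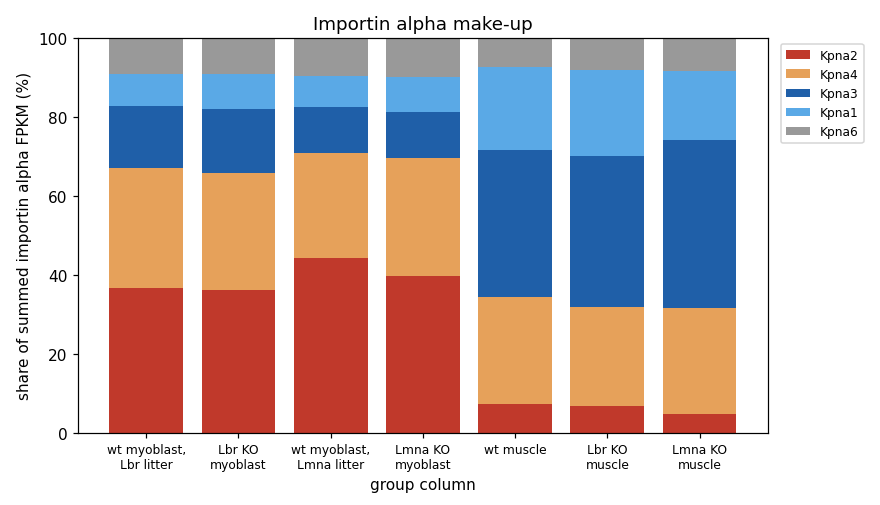
Share of the summed importin alpha FPKM (vertical axis, percent) taken by Kpna2, Kpna4, Kpna3, Kpna1 and Kpna6 in each of the 7 group columns; Kpna7 is too low to draw. Kpna2 fills 36.2% to 44.1% of the myoblast bars and 4.70% to 7.28% of the muscle bars, where Kpna3 takes the largest share.

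In the importin beta family 7 of 8 genes were lower in muscle and 1 was higher. Kpnb1, the beta subunit that carries importin alpha and its cargo through the pore, was at 220.4, 199, 188 and 177 FPKM in myoblasts and at 23.5, 25.3 and 24.6 FPKM in muscle. It was the most abundant of the 40 genes in every myoblast column, and in wild-type muscle it was below Kpna3, Ipo5 and Kpna4. Its difference was −2.94 (−3.27 to −2.61, limma adjusted p = 2.12e-06), with mean FPKM 8.02-fold lower in muscle, and its share of the family's summed FPKM was between 42.6% and 45.8% in myoblasts and between 16.3% and 20.0% in muscle.

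Ipo5, a carrier of ribosomal proteins and histones, was at 98.7, 85.6, 84.3 and 89.6 FPKM in myoblasts and at 32.9, 33.6 and 38.3 FPKM in muscle, a difference of −1.34 (−1.66 to −1.01). It was among the 3 highest transport genes in wild-type samples of both tissues. Ipo13, a receptor that carries cargo in both directions, was at 12.6, 12.0, 14.7 and 17.5 FPKM in myoblasts and at 16.5, 20.8 and 30.6 FPKM in muscle. It was called higher in muscle, by 0.56 (0.19 to 0.92, limma adjusted p = 0.012), but wild-type muscle lay below Lmna-knockout myoblasts, so the groups overlapped. The call was lost without the Lbr-knockout myoblast, Lmna-knockout myoblast, Lbr-knockout muscle or Lmna-knockout muscle column, with limma adjusted p between 0.054 and 0.071. Its share of the family's sum was between 2.63% and 4.22% in myoblasts and between 13.5% and 20.3% in muscle. Ipo8, a carrier that binds Argonaute proteins, had a difference of −0.38 (limma adjusted p = 0.035) that turned to 0.10 under both quantile normalization and median centring.

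Among the exportins 6 of 6 were lower in muscle, with a median of −1.77. Xpo5, which exports microRNA precursors, was at 29.1, 29.2, 31.7 and 31.0 FPKM in myoblasts and at 3.36, 3.88 and 4.76 FPKM in muscle, a difference of −2.67 (−2.99 to −2.35) and a 7.56-fold lower mean FPKM. Xpo1 (CRM1), the main exporter of proteins with leucine-rich export signals, was at 38.1, 33.6, 25.3 and 21.8 FPKM in myoblasts and at 14.9, 13.8 and 12.6 FPKM in muscle. Its difference, −0.998 (−1.42 to −0.57, limma adjusted p = 0.0015), was among the smallest of the class and was no longer called with quantile normalization (limma adjusted p = 0.054). Xpo1 took between 17.5% and 25.5% of the summed exportin FPKM in myoblasts and between 32.3% and 40.4% in muscle, whereas Xpo5 took between 19.5% and 25.0% and between 9.12% and 12.2%. Xpot, the tRNA exporter, had a difference of −2.17.

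The rest of the pathway was read from a list of pore genes, receptors and Ran cycle genes whose names fall outside the rule. Of 28 such genes fitted, 24 were called lower in muscle and 0 higher, against 51.0% and 27.7% of all genes, and the median was −1.47. With columns centred on their medians 19 were called lower and 2 higher, against 4626 and 4750 of all 12454 genes. The receptor gene Ranbp17 and the Ran cycle gene Rangrf passed the level filter only through their myoblast columns, so their lower calls support nothing further. The pore genes Aaas (−2.84) and Tmem48 (−2.48, the membrane nucleoporin Ndc1), the GTPase Ran (−1.84), its activating protein Rangap1 (−2.37), the exchange factor Rcc1 (−1.998) and Cse1l (−1.48), which returns importin alpha to the cytoplasm, were among the genes called lower. Gle1 (0.25), Ranbp2 (−0.15), Nxt1 (−0.30) and Nutf2 (0.41), the last being the carrier that brings Ran into the nucleus, did not pass the test.

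Several other features differed between the tissues in parallel. All 10 genes of a list for dividing cells were lower in muscle, summing to between 666 and 704 FPKM in myoblasts and between 65.6 and 106 FPKM in muscle, with a median difference of −3.15. The macrophage and leukocyte list summed to between 349 and 1243 FPKM in myoblasts and between 59.2 and 84.3 FPKM in muscle, with 4 of its 6 genes below all myoblast columns in all muscle columns. That sum was carried by Lyz2, at 316 to 1131 FPKM in myoblasts and 43.7 to 61.5 FPKM in muscle. In the tissue fit 5 of the 6 genes were called lower, and Ptprc (−0.34, limma adjusted p = 0.23) was not. The lists for endothelial, Schwann, adipocyte and lymphoid cells were higher in muscle, summing to between 139 and 157, 284 and 651, 11.6 and 27.2, and 7.89 and 49.0 FPKM, against at most 8.07, 6.97, 1.37 and 0.405 FPKM in myoblasts. The fibroblast list summed to between 1067 and 1180 FPKM in myoblasts and to between 698 and 747 FPKM in muscle, a sum carried by Col1a1: Col1a1 (−1.29) and Pdgfra (−0.61) were lower in muscle and Dcn (3.19) was higher. The 10 most abundant genes took between 9.21% and 10.6% of the summed FPKM in myoblasts and between 20.2% and 26.5% in muscle. The part of these differences in the transport gene result was not tested.

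The knockouts were then compared within each tissue, to ask whether knockout of Lbr or of Lmna went with a different level of the transport genes. A gene was counted as different when log2(FPKM + 1) differed by at least 1, or 2-fold, between 2 columns. With 1 column per group this is a rule of size and not a test, and a gene listed at 0 in either column was left out. By this rule 0 of the 37 or 38 transport genes compared differed in any of the 4 knockout comparisons. The background was low as well: 2.63% of all genes differed in Lbr-knockout myoblasts, 1.23% in Lmna-knockout myoblasts, 1.59% in Lbr-knockout muscle and 2.74% in Lmna-knockout muscle. A direct comparison of the knockouts in muscle also gave 0 of 38 (1.51% of all genes). Lbr itself fell short of this rule in Lbr-knockout myoblasts, at 7.71 against 16.1 FPKM. A count of 0 there thus leaves room for changes of that size. In the other knockouts against wild type the targeted gene passed the rule.

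In myoblasts, each knockout set against the wild type of its own litter, the transport genes lay close to 0. In Lbr-knockout myoblasts the 37 genes ran from −0.20 to 0.08 with a median of −0.07, against a median of 0.05 over all 11472 genes compared. Of the 37, 27 were below 0. Over all genes 4486 were below 0 and 6986 above 0. In Lmna-knockout myoblasts the 37 transport genes ran from −0.20 to 0.26 with a median of 0.01, against 0.04 over all genes. Kpnb1 was at −0.14 and −0.09 in the Lbr and Lmna comparisons, Kpna2 at −0.09 and −0.18, and Xpo1 at −0.18 and −0.20. The basket gene Nup153, whose protein is known to bind lamins, was at 0.01 and 0.09. Some cell lists differed more. In Lbr-knockout myoblasts the macrophage and leukocyte list lay above wild type at 6 of 6 genes (median 1.57), summing to 1031 against 349 FPKM. Lyz2 alone was at 918 against 316 FPKM. The fibre list lay above wild type at 5 of 5 genes compared (median 1.38). In Lmna-knockout myoblasts their medians were −0.33 and −1.49. Between the wild types of the litters the macrophage list had a median of 1.68, higher in the Lmna litter. Their part in the transport gene values was not tested.

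In muscle, where both knockouts share the wild-type column, the spread of the transport genes was wider. The 38 genes ran from −0.59 to 0.50 with a median of 0.03 in the Lbr knockout (all genes 0.10) and from −0.80 to 0.85 with a median of 0.15 in the Lmna knockout (all genes 0.13). Ipo13 had the highest difference from wild type in Lmna-knockout muscle, at 30.6 FPKM against 16.5 (0.85), and stood at 20.8 FPKM (0.32) in Lbr-knockout muscle. Nup153 was at 16.0 and 12.9 FPKM in Lmna-knockout and Lbr-knockout muscle against 10.01 in wild type (0.63 and 0.33), and Nup210 was at 5.16 FPKM in Lmna-knockout and 5.97 in Lbr-knockout muscle against 3.94 in wild type (0.32 and 0.50). Kpna2 was at 4.36 FPKM in Lmna-knockout and 5.98 in Lbr-knockout muscle against 6.98 in wild type (−0.57 and −0.19). Over all genes compared, 4154 of 12025 lay below wild type and 7871 above it in Lmna-knockout muscle. In Lbr-knockout muscle 4004 of 12000 lay below wild type and 7996 above it. The dividing-cell list lay below wild type at 10 of 10 genes in Lmna-knockout muscle (median −0.68) and at 9 of 10 in Lbr-knockout muscle (median −0.17), and its sum was 65.6 and 91.2 FPKM against 106. The lymphoid list lay above wild type at 4 of 4 genes in both knockouts (medians 1.17 in Lmna-knockout and 1.78 in Lbr-knockout muscle), with sums of 25.7 and 49.0 against 7.89 FPKM. The Schwann list lay above it at 3 of 3 in both (medians 0.62 and 1.07), with sums of 384 and 651 against 284 FPKM. The part of these differences in the transport gene values was not tested.

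The lowest muscle differences belonged to Nup37, a small Y complex member, in the Lmna knockout and to Nup35 in the Lbr knockout. Both were named after their values were seen. Nup37 was at 1.78 FPKM in Lmna-knockout and 2.34 in Lbr-knockout muscle against 3.82 in wild type (−0.80 and −0.53). Nup35 was at 2.88 FPKM in Lmna-knockout and 2.82 in Lbr-knockout muscle against 4.75 in wild type (−0.57 and −0.59). These rest on little sequence: steps between low values in the table put the wild-type muscle column at roughly 23 fragments for Nup37 and 53 for Nup35, and the Lbr-knockout muscle column at 11 and 25. With a pseudocount of 0.1 in place of 1, Nup37 reached −1.07 in Lmna-knockout muscle and was the 1 transport gene past 2-fold. Across the 38 genes the muscle differences and the GC content of the longest transcript had a Spearman rho of 0.48 for the Lbr knockout and 0.40 for the Lmna knockout (over all genes 0.21 and 0.07), a description of columns that share the wild type.

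**Figure D4:**
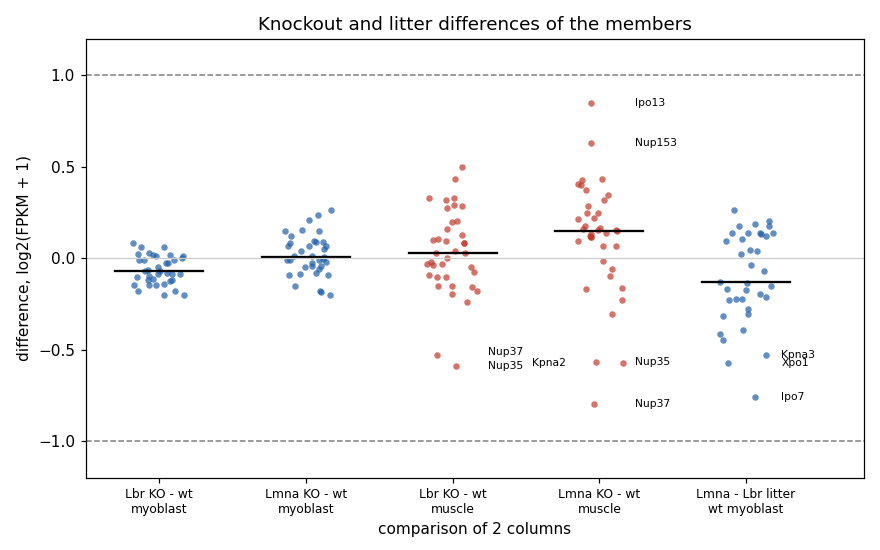
Difference in log2(FPKM + 1) (vertical axis) of each transport gene in 4 knockout comparisons and between the wild-type myoblasts of the litters (Lmna minus Lbr), 37 genes in myoblasts (blue) and 38 in muscle (red); black bars are medians, dashed lines mark 2-fold, horizontal jitter carries no meaning, and genes beyond 0.5 in size are named. No point reaches a dashed line, and the points spread more widely in muscle and between litters than in the myoblast knockouts.

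Genotype was also tested over both tissues in the limma fit, where a difference common to myoblasts and muscle is set against the spread of the 7 columns with 3 residual degrees of freedom. For Lbr 0 of 38 transport genes were called at an adjusted p under 0.05, as for 0.00% of the 12454 genes, and at an unadjusted p under 0.05 the counts were 0 transport genes and 275 genes in all. Lbr itself was thus not called, although it was at 7.71 against 16.1 FPKM in myoblasts and 1.87 against 11.8 FPKM in muscle. The adjusted test missed the targeted gene, so 0 calls among transport genes do not show that they were unchanged. For Lmna 0 of 38 were called, against 0.00803% or 1 gene of all, and at an unadjusted p under 0.05 the counts were 1 and 479. That 1 gene was Ipo13, higher by 0.55 (0.11 to 0.98) at an unadjusted p of 0.021 in limma (adjusted p = 0.95). No 95% interval of the 38 genes for this common difference reached 2-fold on log2(FPKM + 1): they stayed within −0.84 to 0.87 for Lbr and −0.87 to 0.98 for Lmna. A difference in 1 tissue only enters the spread, so the intervals do not bound it. Nup37 was at −0.80 in Lmna-knockout muscle and −0.007 in Lmna-knockout myoblasts, and its Lmna fit was −0.34 (−0.82 to 0.15). This fit has no term for litter, so litter differences between myoblast columns enter its spread. With the myoblast litter as a term, an alternative chosen after seeing the data that leaves 2 residual degrees of freedom, 0 of 38 were again called for either knockout, and the intervals stayed within −0.76 to 0.83 for Lbr and −0.87 to 0.93 for Lmna; at an unadjusted p under 0.05 the counts were 0 transport genes of 579 genes for Lbr and 2 of 672 for Lmna, Ipo13 and Kpna2.

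The wild-type myoblasts of the litters differed 2-fold at 0 of 37 transport genes (2.71% of all genes), with values from −0.76 for Ipo7 to 0.26 for Nup43 and a median of −0.13 (Lmna litter minus Lbr litter), against 0.07 over all genes. Knockout and wild type of a litter sat together: both Lbr-litter columns were above both Lmna-litter columns for 17 of the 37 genes (29.2% of all 11524 genes) and below both for 14 (39.1%), and for 6 the litters overlapped. Ipo7, an importer of ribosomal proteins and histone H1 named after its values were seen, was at 49.1 and 49.9 FPKM in wild-type and knockout myoblasts of the Lbr litter and at 28.6 and 30.6 FPKM in those of the Lmna litter, and at 15.9, 14.2 and 21.9 FPKM in muscle. Its mean litter difference was −0.72. Kpna3 (−0.53), Xpo1 (−0.59) and Xpot (−0.44) were also lower in the Lmna litter. Ipo13 (0.36) and Nup62 (0.33) were higher.

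The genes on each side of this litter difference differed in base composition. GC content of the longest annotated transcript had a median of 44.6% in the 17 genes higher in the Lbr litter, 49.9% in the 14 lower there and 47.2% in the other 6. Across the 37 transport genes the mean litter difference rose with GC content, with a Spearman rho of 0.60 and a Pearson r of 0.64, and across 11388 genes the values were 0.56 and 0.53. With transcript length the rho was −0.35 over the transport genes and −0.43 over all genes. These correlations are across genes of the same 4 columns, which are not independent replicates. Litter, culture and library preparation cannot be told apart here, and the part of base composition in the difference was not tested. With the litters’ wild types exchanged, Ipo7 was at 0.78 in Lbr-knockout and −0.66 in Lmna-knockout myoblasts, Xpo1 at 0.40 and −0.78, and Kpna3 at 0.52 and −0.55, in place of values between −0.20 and 0.10 against the wild type of the own litter.

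**Figure D5:**
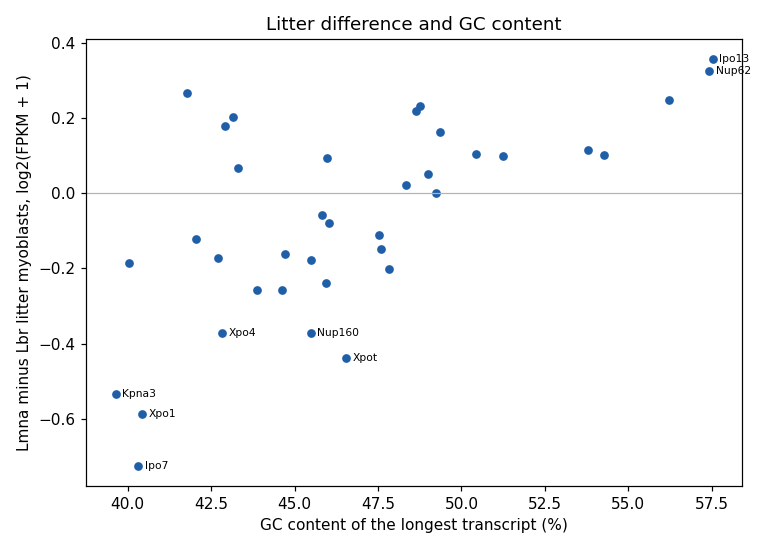
Mean difference between myoblasts of the Lmna litter and of the Lbr litter in log2(FPKM + 1) (vertical axis) against GC content of the longest annotated transcript in percent (horizontal axis), 1 point for each of 37 transport genes, with genes beyond 0.3 in size named. Ipo7, Xpo1 and Kpna3 lie at low GC content and low values and Ipo13 and Nup62 at high GC content and high values; the Spearman rho is 0.60.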

How the data were processed

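RNA sequencing of 12 mouse samples was analysed from the deposited table of FPKM, which the authors made with 1 column for each of 7 groups. The build was mm9, per the submitters' processing notes; the aligner, the quantifier, strand use and how 2 samples became 1 column were not given in the sources used here. Total RNA was isolated with TRIZOL and purified on RNeasy columns, per the labels' protocols. The members and lists were chosen with earlier results of these data known.

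Differences were taken on log2(FPKM + 1). Pairs of columns were compared where their mean was at least 1 FPKM and neither was 0, with a 2-fold rule and no test. Tissue and genotype were fitted with limma 3.58.1 in R 4.3.3 (lmFit, eBayes with trend, 7 columns, 3 residual and 4.18 prior degrees of freedom, mean of at least 1 FPKM, Benjamini-Hochberg over 12454 genes, adjusted p under 0.05). Each column counted once, whether it held 1 or 2 samples, so p-values measure the spread between group columns. On simulated data the tissue fit called 100% of 100 genes changed 3-fold and 100% of 100 changed 1.5-fold. Among 12181 genes it called 0.0835% of the unchanged ones. The 2-fold rule between 2 columns called 100% of 100 genes changed 3-fold and 0% of 100 changed 1.5-fold, among 12176. It therefore does not see changes of 1.5-fold. The simulated noise was independent between columns, smaller than the spread between the wild-type myoblast columns of the litters, and held no litter difference. Only genes well above the level filter were changed. These shares therefore check the code and do not give the power in the real data.

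Values for every column are given for genes past 2-fold in a column comparison, the 6 largest tissue differences in each direction, the 3 highest genes in wild-type samples, and Kpna2, Kpnb1, Xpo1, Nup153, Nup98, Nup62, Nup93, Nup107 and Nup210. Other transport genes under 1 FPKM throughout a tissue, Nup210l and Kpna7, are given by range or maximum. GC content and length are those of the longest GENCODE M21 transcript, matched by symbol for 40 of the 40 genes and 22073 in all, with no coordinates joined to the mm9 table. Depth is not stated. Steps between low values gave about 16.8 fragments per FPKM and kilobase for the wild-type myoblast columns, 11.9 for the knockout myoblast columns, 4.15 for wild-type and 3.23 for Lbr-knockout muscle, as a rough estimate, and none that was unambiguous for Lmna-knockout muscle. Alternatives were pseudocounts of 0.1 and 5, no filter, quantile normalization, median centring, no variance trend, tissue alone, the wild type of the other litter, genes listed at 0 left out, the myoblast litter as a term, and each column left out.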

Additional observations from a re-analysis of the deposited data

How the results depend on the processing

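The tissue counts kept within 31 to 37 called genes under all alternatives run, with 32 to 34 lower and 1 or 2 higher when a column was left out and 29 lower and 2 higher with quantile normalization. Of the 35 lower calls, 29 held in all 16 alternatives; the others were those of Ipo7, Ipo8, Kpna1, Nup133, Nup35 and Xpo1, and the higher call of Ipo13 did not hold in all of them. Signs turned for Ipo8, Kpna1 and Nup133 with quantile normalization (0.10, 0.14 and 0.14) and with columns centred on their medians (0.098, 0.096 and 0.13); both shift the median of all genes, from −0.47 to −0.16 and 0.01. With quantile normalization 44.8% of all calls were higher, against 35.2%. Without the filter 45.6% of calls over 21282 genes were higher. In Lmna-knockout muscle the count of transport genes past 2-fold went from 0 to 1 with a pseudocount of 0.1, by its construction for low values. The knockout and litter counts stayed at 0 under the other alternatives run. Of 220 differences recomputed for single genes, 213 moved by less than 0.30 and 7 moved by more, 6 of them with the wild type of the other litter. This yardstick is the SD across genes of the difference between the 2 wild-type myoblast columns, divided by the square root of 2. It therefore includes the litter difference. No paired analysis was possible because the columns carry no replicate numbers. The litter that the myoblast column names give was added as a term after seeing the data, and the tissue counts stayed at 35 lower and 2 higher. Exons of Ipo4 share 55.3% of their bases with the overlapping gene Gm49378 on the same strand, and those of Kpnb1 share 7.07% and those of Nup188 7.88% with genes on the opposite strand, so these levels are uncertain. Low depth limits the muscle values most: Nup107 rests on about 22 fragments and Kpna2 on about 60 in wild-type muscle.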

Other observations

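Tpr and Ranbp2, which are 2 filament proteins of the pore, fall outside the naming rule. Their litter differences were larger in size than those of the 37 transport genes compared. Tpr, the filament protein of the nuclear basket, was at 111 and 112 FPKM in wild-type and knockout myoblasts of the Lbr litter and at 53.1 and 47.4 FPKM in those of the Lmna litter, a mean difference of −1.14. Ranbp2, a filament protein of the cytoplasmic face, was at 35.9 and 40.9 FPKM in the Lbr litter and at 20.0 and 19.9 FPKM in the Lmna litter (−0.91). In wild-type, Lbr-knockout and Lmna-knockout muscle it was at 23.8, 24.1 and 27.6 FPKM. All 3 muscle columns of Ranbp2 thus lay between the litters. Both genes were named after their values were seen, and the litter difference was not tested.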
